A study of Homo sapiens with 16 samples.

Results

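The members described here are 10 genes of the S100 family of small calcium-binding proteins: S100A2, S100A3, S100A4, S100A6, S100A7, S100A8, S100A9, S100A10, S100A11 and S100P. They were chosen by gene symbol from 57820 gene identifiers in the count tables, and each symbol matched 1 identifier. Their mRNA was followed in 16 RNA-Seq libraries in 8 groups of 2 biological replicates. MDA-MB-231 and MDA-MB-436 are mesenchymal lines from triple-negative breast cancers (TNBC), and the groups cross them with 2 states of a Wnt reporter and 2 serum conditions. Every group, the 7TGP-NEG groups included, carried the stably transfected 7TGP vector, in which Tcf sites drive eGFP beside a puromycin selection cassette. Cells without eGFP (7TGP-NEG) and with bright eGFP (7TGP-POS) were enriched by repeated sorting and expansion, so each subline is 1 sorted, uncloned pool, and 7TGP-POS sublines still hold some cells without eGFP. Low serum meant 0.5% fetal bovine serum (FBS) for 3 days, with rRNA-depleted libraries. Standard serum meant 10% FBS for 6 days, with polyA-selected libraries. Serum is thus confounded with days in culture, library type and run, which cannot be told apart, and no value was tested across the serum conditions. Per the study's methods the cell lines were kept in different media, so cell line and medium cannot be told apart either.

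S100 proteins are small EF-hand proteins that mostly work as dimers, change shape when they bind calcium, and then dock on to target proteins. Inside cells they bind annexins, myosin and other cytoskeletal proteins. Several are also released and bind receptors such as RAGE (gene AGER), TLR4, CD147 (BSG) and MCAM. S100A8 and S100A9 form calprotectin, an abundant protein of neutrophils and monocytes that carcinoma cells can also make, and S100A4 is known for its links to cell motility and metastasis. Most S100 genes lie in 1 cluster on chromosome 1, close to epidermal differentiation genes, while S100P lies on chromosome 4.

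On GRCh37, the 9 chromosome 1 members lie between chr1:151955391-151966335 (S100A10, ENSG00000197747) and chr1:153533584-153540366 (S100A2). S100A9 (ENSG00000163220) is at chr1:153330330-153333499 on the plus strand, and its neighbour S100A8 (ENSG00000143546) at chr1:153362508-153363549 on the minus strand. S100A4 (ENSG00000196154) is at chr1:153516089-153522612 on the minus strand, and S100P (ENSG00000163993) at chr4:6695605-6698897 on the plus strand.

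Library totals ran from 27918418 to 46044073 counts. Tests covered protein-coding genes with a sum of 10 or more counts within a serum condition, which left 16069 genes in low and 15414 in standard serum. A gene was called when edgeR's quasi-likelihood test gave a Benjamini-Hochberg adjusted p below 0.05 and the log2 fold change was 1 or more in size. With 2 cultures a group, the p-values set a change against the spread between cultures of 1 sorted pool, not between separate sorts. All 10 members passed the filter in both serum conditions. S100A7 did so with a sum of 12 and 11 counts. In standard serum S100A8 and S100A9 did so only through MDA-MB-436. The labelled cell types were checked by markers: VIM (vimentin, mesenchymal) ran from 659 to 5044 CPM (the count scaled to a common library total), and CDH1 (E-cadherin, epithelial) reached at most 0.401 CPM, while the epithelial EPCAM reached 8.57 CPM and the mesenchymal CDH2 ran from 0.193 to 245 CPM. Of the receptors that define TNBC by their absence, ESR1 and PGR reached at most 0.697 and 0.980 CPM, and ERBB2 mRNA was at 55.9 to 116 CPM. The 2 standard serum MDA-MB-436 7TGP-POS libraries stood apart, with a median replicate SD of 0.0835 in log2 CPM against 0.0411 to 0.0577 in the other 7 groups, and their log2 ratio followed GC content with r = -0.687 across genes.

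The promoters of S100A9, S100A8 and S100A4 are shown because mRNA of these 3 members was lower in 7TGP-POS cells of MDA-MB-436 in both serum conditions. Each sequence is the 250 bases before a RefSeq start site, 5′ to 3′ on the gene's strand. The windows come from RefSeq on GRCh38.p14 and each matched chromosome 1 of GRCh37, the build of the files, exactly once. They lie at chr1:153330080-153330329 on the plus strand for S100A9, chr1:153363550-153363799 on the minus strand for S100A8, and chr1:153518283-153518532 on the minus strand for S100A4. The S100A4 window belongs to a start site 4330 bases inside the outermost annotated one. The capitals mark the TATAAA motif.
S100A9: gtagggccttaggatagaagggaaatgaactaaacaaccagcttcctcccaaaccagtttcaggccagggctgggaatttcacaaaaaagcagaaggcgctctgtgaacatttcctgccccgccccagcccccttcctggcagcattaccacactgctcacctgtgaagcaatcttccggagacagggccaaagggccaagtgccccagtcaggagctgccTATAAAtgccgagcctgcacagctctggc
S100A8: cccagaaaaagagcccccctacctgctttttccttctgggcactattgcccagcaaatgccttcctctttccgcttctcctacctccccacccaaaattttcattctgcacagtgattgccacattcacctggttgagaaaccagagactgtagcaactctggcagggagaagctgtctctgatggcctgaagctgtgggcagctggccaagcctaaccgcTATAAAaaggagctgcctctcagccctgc
S100A4: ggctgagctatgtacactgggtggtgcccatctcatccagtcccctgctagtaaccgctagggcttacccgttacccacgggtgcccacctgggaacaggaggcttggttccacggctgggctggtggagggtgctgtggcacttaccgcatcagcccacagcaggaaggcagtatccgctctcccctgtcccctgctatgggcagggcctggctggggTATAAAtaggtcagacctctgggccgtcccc

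The TATAAA motif began 29 bases before the start site in S100A9 and in S100A8, and 31 bases before it in S100A4. Searched on both strands of windows from 250 bases before to 50 bases after the start, it was present in 6 of the 13 windows of the members and in 11.5% of 35116 RefSeq windows of the same length. Those 6 belong to 5 of the 10 members, S100A4, S100A7, S100A8, S100A9 and S100P. Of the 3 windows of S100A8, which overlap, 1 lacks it. The others hold the same 1 site, at 29 and 126 bases before their starts. The Tcf/Lef core ATCAAAG was present in 0 of the 13 windows of the members and in 2.62% of all windows. The AP-1 motif TGANTCA was found for S100A2 and S100A3, against 7.71% of all windows, and the NF-kB motif for 0 members, against 0.558%. These are matches of letters in short windows and say nothing on binding.

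TPM, a deposited measure that also corrects for transcript length, was used to order the members within a group. S100A6 (calcyclin, a cytoskeleton and annexin-binding protein) was the highest member in all 8 groups. Its TPM ran from 1707 in low serum MDA-MB-436 7TGP-POS to 10174 in standard serum MDA-MB-231 7TGP-NEG. S100A6 made up 74.0% to 81.8% of the summed member TPM in MDA-MB-231 and 34.7% to 52.1% in MDA-MB-436. The next places in MDA-MB-231 went to S100A4, S100A11 and S100A10 in low serum and to S100A11, S100A10 and S100A4 in standard serum. S100A11 is a dimeric partner of annexin A1, and S100A10 (p11) binds annexin A2 and plasminogen. In low serum MDA-MB-231 7TGP-POS the ranges of S100A4 (321 to 380 TPM) and S100A11 (279.8 to 358 TPM) overlapped, so their order is not resolved there. In MDA-MB-436 7TGP-NEG the second place went to S100A9 in both serum conditions. Its 2 libraries gave 2662 and 2579.9 TPM in low serum, close below S100A6 at 2709.9 and 2737 TPM. In standard serum they gave 3765 and 3571 TPM against 4201 and 3941 TPM for S100A6. At the low end, S100A2, S100A3 and S100P stayed at or below 40.5 TPM, and S100A7 never exceeded 1.07 TPM. In standard serum MDA-MB-436 7TGP-POS S100A3 and S100A8 overlapped, at 19.4 and 21.2 TPM against 21.1 and 18.8 TPM.

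**Figure D1:**
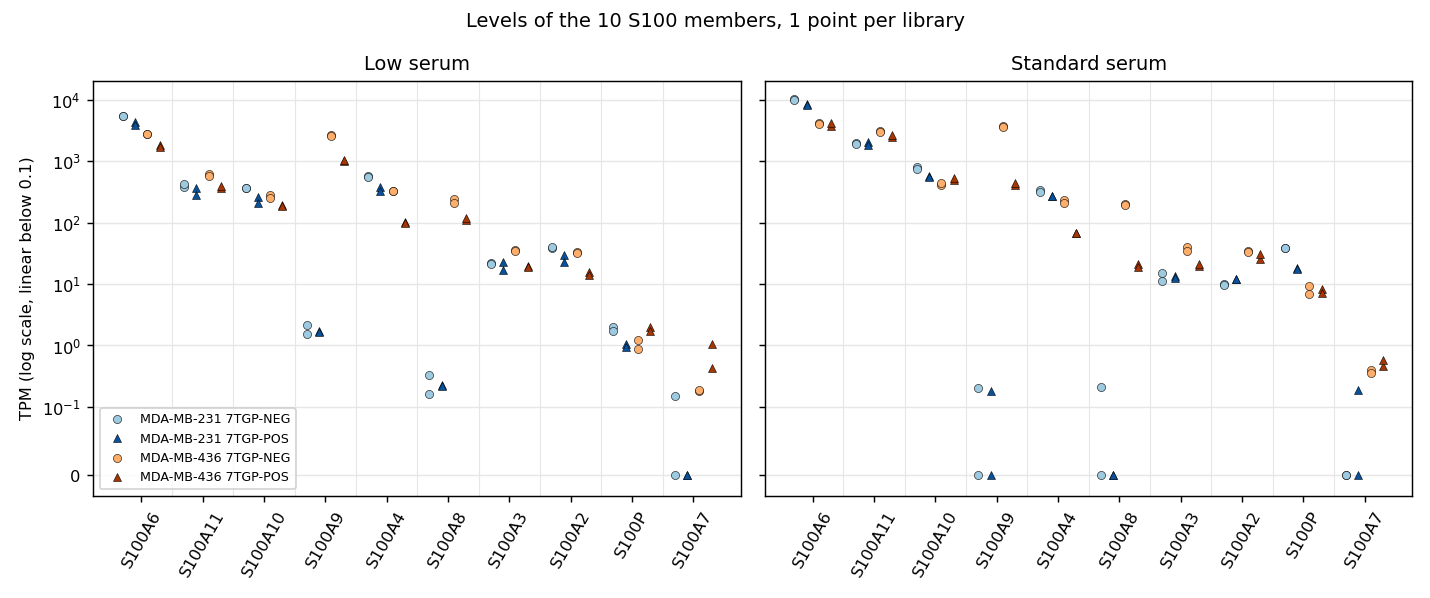
TPM of the 10 members (log axis, linear below 0.1) in low serum (left) and standard serum (right), with 1 point per library and 2 libraries per group, circles for 7TGP-NEG and triangles for 7TGP-POS. S100A6 is highest throughout, and S100A8 and S100A9 are at most 2.16 TPM in MDA-MB-231 and at least 18.8 TPM in MDA-MB-436.

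The calprotectin genes S100A8 and S100A9 were high in MDA-MB-436 and nearly absent from MDA-MB-231. In low serum S100A9 had 15833 and 14640 counts in MDA-MB-436 7TGP-NEG, and 11 and 15 counts in MDA-MB-231 7TGP-NEG. Its CPM was 1159-fold higher in MDA-MB-436 (95% counting interval, exact Clopper-Pearson, 791 to 1774). S100A8 had 2468 and 2085 counts against 2 and 4, a ratio of 746 (344 to 2046). In standard serum S100A9 had 20251 and 21892 counts in MDA-MB-436 7TGP-NEG against 0 and 1, and S100A8 had 1907 and 2030 against 2 and 0. With so few counts the ratios are loose, at 36877 (7059 to 1553677) for S100A9 and 1963 (508 to 15177) for S100A8. The intervals cover counting error only. The 2 MDA-MB-231 7TGP-POS libraries were as low: 13 and 13 counts of S100A9 and 3 and 3 of S100A8 in low serum, and 0 and 1 counts of S100A9 and 0 and 0 of S100A8 in standard serum. Against a floor of 3 counts per library, standard serum S100A8 was at least 61.9-fold higher in the 7TGP-POS cells of MDA-MB-436 than in those of MDA-MB-231. In low serum the S100A9 CPM of the 4 MDA-MB-231 libraries was between 0.0721% and 0.101% of the MDA-MB-436 7TGP-NEG mean. It was no more than 0.00542% of that mean in standard serum.

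Between the 7TGP-NEG sublines of the cell lines, 5 of 10 members were called in low serum, where 41.9% of all tested genes were called, and 7 of 10 in standard serum, where 46.7% were. Both counts include S100A8 and S100A9. In standard serum these genes passed the count filter only through MDA-MB-436 and so had to differ. Without them 3 and 5 of the other 8 members were called in low and standard serum. S100A6 and S100P were called higher in MDA-MB-231 in both. S100A6 CPM was 2158 and 2143 in MDA-MB-231 against 830.2 and 913 in low serum MDA-MB-436, with a log2 fold change of 1.41 ± 0.0766 (SE, edgeR adjusted p = 3.82e-10), and it was 1.45 ± 0.0805 in standard serum (edgeR adjusted p = 6.48e-12). S100A4 was called higher in MDA-MB-231 in low serum (1.19 ± 0.0552, edgeR adjusted p = 2.31e-21), and in standard serum the change was 0.73 ± 0.0816. S100A10 was called higher there in standard serum (1.04 ± 0.0733, edgeR adjusted p = 2.22e-10), and its value in low serum was 0.85 ± 0.0538. S100A2 and S100A3, both little expressed, were called lower there, at -1.61 ± 0.128 and -1.35 ± 0.158 in standard serum (edgeR adjusted p = 1.2e-09 and 3.08e-07). S100A2 pointed the other way in low serum, at 0.69 ± 0.0840 (edgeR adjusted p = 1.12e-09). The S100A4 and S100P calls in low serum were lost with limma on TPM, where the changes were 0.79 and 0.50 with a pseudocount of 1, and the S100A10 call was lost with upper-quartile scaling (0.95), with limma on TPM (0.87 with either pseudocount) and without MDA-MB-436 7TGP-NEG replicate 1 (0.98).

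In MDA-MB-436, S100A9, S100A8 and S100A4 were lower in 7TGP-POS than in 7TGP-NEG in both serum conditions, with both 7TGP-POS libraries below both 7TGP-NEG libraries. In bulk RNA, fewer cells that express a gene and less of its RNA per cell cannot be told apart. S100A9 was 2.15-fold lower in low and 8.81-fold lower in standard serum, S100A8 was 1.66-fold and 10.1-fold lower, and S100A4 was 2.73-fold and 3.36-fold lower. By the full rule, 3 of 10 members were called in low serum (S100A4 and S100A9 lower, S100P higher), where 10.5% of all tested genes were called. In standard serum 3 of 10 were called, all lower (S100A4, S100A8 and S100A9), against 12.5% of all tested genes.

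S100A9 CPM in MDA-MB-436 was 485 and 511 in 7TGP-NEG and 236 and 228 in 7TGP-POS in low serum. In standard serum it was 599.7 and 559 in 7TGP-NEG and 62.9 and 68.6 in 7TGP-POS. The replicates lay close together beside the gap between the sublines. The log2 fold change was -1.12 ± 0.0502 (SE, n = 2 per group, edgeR adjusted p = 5.95e-22) in low serum and -3.20 ± 0.0881 (edgeR adjusted p = 9.1e-15) in standard serum. S100A8 CPM was 75.5 and 72.8 in 7TGP-NEG and 45.1 and 44.2 in 7TGP-POS in low serum, and 56.5 and 51.8 against 5.63 and 5.05 in standard serum. Its log2 fold change of -0.74 ± 0.0616 in low serum passed the adjusted p (edgeR, 1.51e-13) but not the fold limit, and it was -3.39 ± 0.126 in standard serum (edgeR adjusted p = 1.04e-12). With each library left out in turn, the standard serum values ran from -3.25 to -3.15 for S100A9 and from -3.51 to -3.31 for S100A8. The serum conditions differ in library type, so the larger standard serum values are set side by side only.

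S100A8 and S100A9 encode the 2 chains of calprotectin, and their ratio was also followed. The TPM ratio of S100A9 to S100A8 in low serum MDA-MB-436 was 11.2 and 12.2 in 7TGP-NEG and 9.11 and 8.99 in 7TGP-POS. In standard serum it was 18.5 and 18.8 in 7TGP-NEG and 19.5 and 23.7 in 7TGP-POS. S100A9 TPM was thus above S100A8 TPM in every MDA-MB-436 library. Together they made up 42.0% and 41.4% of the summed member TPM in low serum 7TGP-NEG and 30.4% and 32.5% in 7TGP-POS. The share was 33.2% and 33.1% in standard serum 7TGP-NEG and 6.03% and 5.91% in 7TGP-POS. Over the 16 libraries, centred within serum, log2(CPM + 1) of S100A8 and S100A9 had Pearson r = 0.986, over libraries that fall into 2 cell lines.

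**Figure D2:**
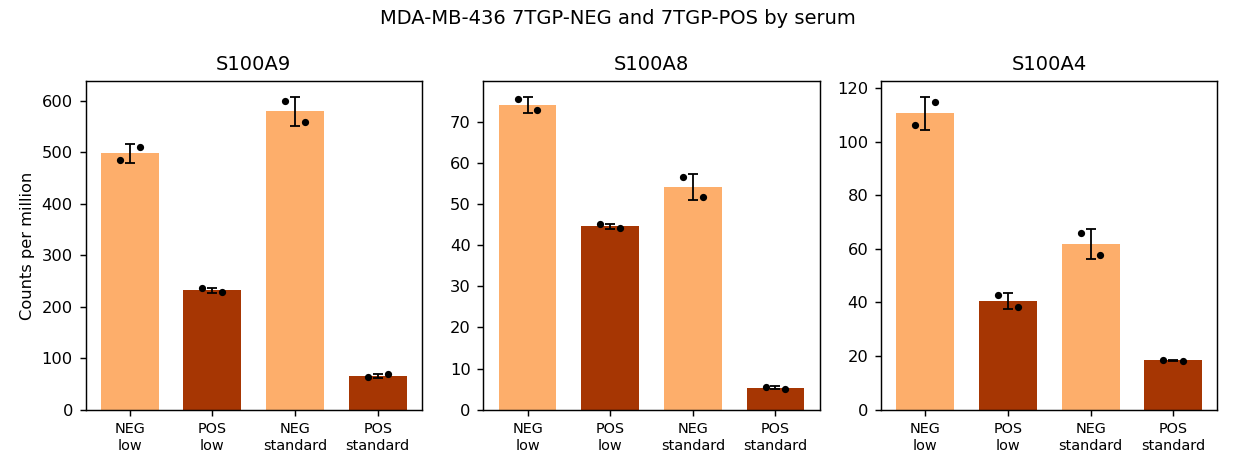
CPM of S100A9, S100A8 and S100A4 in MDA-MB-436 7TGP-NEG and 7TGP-POS in low and standard serum, with bars for the mean of 2 libraries, error bars for the SD and points for the libraries. All 7TGP-POS points lie below all 7TGP-NEG points within each serum condition for the 3 genes.

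Because calprotectin is abundant in myeloid cells, leukocyte markers were examined in the same libraries. Of 8 markers, 5 were tested, and 1 was called between the MDA-MB-436 sublines, lower in 7TGP-POS under both serum conditions. That was ITGAM (CD11b, a myeloid integrin), at 4.50 and 5.03 CPM in 7TGP-NEG against 1.67 and 2.47 CPM in 7TGP-POS in low serum (-1.22 ± 0.194 on the log2 scale). In standard serum ITGAM was at 3.14 and 3.73 against 1.39 and 1.15 CPM (-1.48 ± 0.214). The summed level of the 8 markers in MDA-MB-436 was 10.6 to 10.7 CPM in 7TGP-NEG and 12.5 to 13.4 CPM in 7TGP-POS in low serum, and 9.33 to 9.93 against 4.78 to 6.01 CPM in standard serum. MPO and CD3E reached at most 2 counts in any of the 16 libraries. PTPRC (CD45, the pan-leukocyte marker) was at 0.0766 to 0.349 CPM in MDA-MB-436. It was at 1.83 to 9.31 CPM in MDA-MB-231. Between the 7TGP-NEG sublines the list went both ways: PTPRC, CSF1R and LYZ were called higher in MDA-MB-231 in both serum conditions, while ITGAM in both and CD14 in standard serum were called higher in MDA-MB-436, as S100A8 and S100A9 were. The part of ITGAM and CD14 in the S100A8 and S100A9 values was not tested. Among 6 keratinocyte markers, LORICRIN had 0 counts in all 16 libraries, and KRT1 and IVL had at most 1 and 5 counts. KRT5 and KRT14 each reached at most 23 counts, and KRT10 ran from 2.27 to 26.1 CPM. In MDA-MB-436 KRT5 was called higher in 7TGP-POS in both serum conditions, and KRT14 was called lower in low serum. These calls rest on few counts, and KRT5 had 0 counts in 9 of the 16 libraries and at most 0.824 CPM.

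S100A4 (metastasin), a binding partner of non-muscle myosin, had 106 and 115 CPM in low serum MDA-MB-436 7TGP-NEG and 42.6 and 38.5 CPM in 7TGP-POS. In standard serum it had 65.9 and 57.8 CPM in 7TGP-NEG and 18.5 and 18.3 CPM in 7TGP-POS. The groups did not overlap in either serum. The log2 fold changes were -1.46 ± 0.0601 (edgeR adjusted p = 5.88e-22) and -1.80 ± 0.0866 (edgeR adjusted p = 1.05e-11), and with each library left out the second ran from -1.90 to -1.71. In MDA-MB-231 S100A4 was also lower in 7TGP-POS, but by less. It had 239.8 and 229 CPM in 7TGP-NEG against 170.3 and 161 in 7TGP-POS in low serum, and 90.3 and 87.4 against 74.2 and 74.7 in standard serum. Those log2 fold changes were -0.49 ± 0.0541 and -0.31 ± 0.0810 (edgeR adjusted p = 1.17e-09 and 0.00616). The standard serum value missed the threshold without 7TGP-NEG replicate 1 (edgeR adjusted p = 0.0805) and also without 7TGP-POS replicate 2. S100A4 was lower in 7TGP-POS in all 4 comparisons.

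Among the other members in MDA-MB-436, S100P alone reached the fold limit, in low serum. By adjusted p without the fold limit, 8 members were lower and 1 was higher in low serum, against 25.3% and 26.6% of all tested genes, and 6 were lower and 1 higher in standard serum, against 23.4% and 26.1%. The median log2 fold change over the 9 members with enough counts was -0.62 in low and -0.36 in standard serum, and over all tested genes it was 0.01 and 0.00. S100A2 was at -0.87 ± 0.0959 in low and -0.36 ± 0.114 in standard serum (log2 fold change, edgeR adjusted p = 3.54e-10 and 0.0133). The low serum value crossed the fold limit with limma on TPM (to -1.13) and without 7TGP-POS replicate 1 (-1.04). The standard serum value missed the threshold with DESeq2, without either 7TGP-NEG library and without 7TGP-POS replicate 1, with an edgeR adjusted p of up to 0.0907. S100A3 was at -0.62 ± 0.113 and -0.98 ± 0.148 (edgeR adjusted p = 1.13e-05 and 2.57e-05), and the second crossed the fold limit with DESeq2 and without replicate 2 of either subline. S100A3 lies within the span of S100A4 on the same strand, and 0 of its 841 exonic bases are exonic in S100A4. S100A11 was at -0.38 ± 0.0547 and -0.34 ± 0.0780, lower in 7TGP-POS in both. S100A6 was at -0.38 ± 0.0756 in low serum (edgeR adjusted p = 0.000792; -0.25 without 7TGP-POS replicate 2) and at -0.16 ± 0.0790 with overlapping groups in standard serum (edgeR adjusted p = 0.0989). S100A10 went from 137 and 135 CPM to 121 and 108 in low serum. That change was -0.25 ± 0.0547 on the log2 scale, and -0.16 without 7TGP-POS replicate 2. In standard serum it went from 173 and 185 CPM to 204 and 221, a change of 0.19 ± 0.0727 (edgeR adjusted p = 0.0399). That value missed the threshold with DESeq2, with its size factors in edgeR, with all biotypes, without 7TGP-POS replicate 2 and without any 1 of the 4 7TGP-NEG libraries of the cell lines. The highest edgeR adjusted p was 0.252, without 7TGP-NEG replicate 1 of MDA-MB-436 (0.13).

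In MDA-MB-231, 0 of 10 members were called in low serum, where 5.90% of all tested genes were, and 1 of 10 in standard serum, where 7.69% were. Of these 10, only 8 in low and 7 in standard serum had enough counts in MDA-MB-231 for a fitted value. S100A7, S100A8 and, in standard serum, S100A9 did not. With the adjusted p alone, 5 members were lower and 0 higher in low serum, and 4 were lower and 0 higher in standard serum. The shares of all tested genes that passed as lower were 19.9% and 16.2%, and 19.0% and 16.8% passed as higher. In low serum DESeq2 also called 0 members, and 5 members had an unadjusted edgeR p below 0.05. Beside S100A4, the members that passed in low serum were S100A10 (-0.45 ± 0.0534), S100A2 (-0.41 ± 0.0834), S100A6 (-0.23 ± 0.0750) and S100A11 (-0.14 ± 0.0551). S100A6 missed the threshold with DESeq2 and without any 1 of the 4 MDA-MB-231 libraries (edgeR adjusted p up to 0.244). S100A11 CPM overlapped, at 106 and 115 against 107 and 93.0, and it missed the threshold with DESeq2, with its size factors in edgeR, with filterByExpr and with all biotypes. It also did so without replicate 2 of either MDA-MB-231 subline (-0.08 and -0.06, edgeR adjusted p up to 0.458), without either MDA-MB-436 7TGP-NEG library and without MDA-MB-436 7TGP-POS replicate 1. In standard serum they were S100A10 (-0.50 ± 0.0726), S100A6 (-0.31 ± 0.0789) and S100P, of which S100A6 missed the threshold without 7TGP-NEG replicate 1 (edgeR adjusted p = 0.0575). S100A10 CPM was 227 and 230.1 in 7TGP-NEG against 173 and 159 in 7TGP-POS in low serum, and 324 and 314 against 238 and 232 in standard serum. S100A3 was not resolved in either, at 0.04 ± 0.115 and -0.04 ± 0.174. S100A11 in standard serum was at -0.03 ± 0.0782 (edgeR adjusted p = 0.83).

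**Figure D3:**
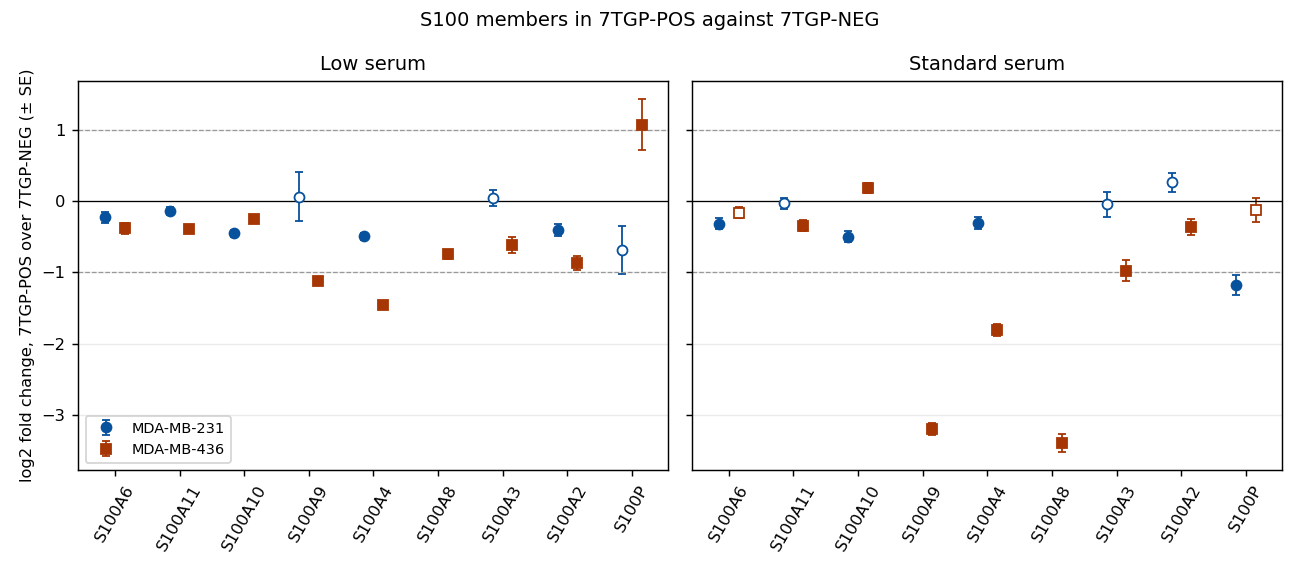
log2 fold change (± SE) of 7TGP-POS over 7TGP-NEG for 9 members in low serum (left) and standard serum (right), circles for MDA-MB-231 and squares for MDA-MB-436, filled where the edgeR adjusted p was below 0.05. Dashed lines mark the fold limit of 1, and values are left out where a group had fewer than 10 counts. The lowest points are S100A8 and S100A9 of MDA-MB-436 in standard serum, at -3.39 and -3.20.

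S100P, first found in placenta and a ligand of RAGE, went in opposite directions in the cell lines in low serum, at low counts. In low serum MDA-MB-231 it had 32 and 27 counts in 7TGP-NEG and 18 and 17 in 7TGP-POS. In MDA-MB-436 it had 16 and 11 counts in 7TGP-NEG and 33 and 23 in 7TGP-POS. The 7TGP-POS libraries were thus below the 7TGP-NEG libraries in MDA-MB-231 and above them in MDA-MB-436. The fitted log2 fold changes were -0.68 ± 0.339 for MDA-MB-231 (edgeR adjusted p = 0.111) and 1.08 ± 0.363 for MDA-MB-436 (edgeR adjusted p = 0.0118). That call was lost in 6 alternatives: with DESeq2 (adjusted p = 0.103), with a prior count of 2 (0.98), with limma on log2(TPM + 1) and log2(TPM + 0.1) (0.48 and 0.78), without 7TGP-NEG replicate 2 (0.93, edgeR adjusted p = 0.0842) and without 7TGP-POS replicate 1 (0.86, edgeR adjusted p = 0.135). In standard serum S100P had 474 and 430 counts in MDA-MB-231 7TGP-NEG and 208 and 215 in 7TGP-POS, a change of -1.18 ± 0.141 (edgeR adjusted p = 3.3e-06) that kept its call with each library left out in turn. In MDA-MB-436 it had 109 and 92 against 129 and 90 counts, and the groups overlapped in CPM (-0.12 ± 0.174, edgeR adjusted p = 0.592).

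Whether the change from 7TGP-NEG to 7TGP-POS differed between the cell lines was tested as an interaction, MDA-MB-231 minus MDA-MB-436. In low serum 2 of 10 members were called, S100A9 and S100P, against 11.7% of all tested genes. In standard serum 2 of 10 were called, S100A4 and S100P, against 13.8%. For S100A4 the difference was 1.50 ± 0.118 in standard serum (edgeR adjusted p = 1.46e-08), and it was 0.96 ± 0.0807 in low serum (edgeR adjusted p = 1.18e-12), just under the fold limit, which it crossed in 9 alternatives (up to 1.08). S100A9 differed by 1.18 ± 0.350 in low serum (edgeR adjusted p = 0.0102), a value that rests on 11 to 15 counts per MDA-MB-231 library and lost its call without MDA-MB-231 7TGP-NEG replicate 1 (0.97, edgeR adjusted p = 0.0802) or 7TGP-POS replicate 2 (1.13, edgeR adjusted p = 0.0650). S100P differed by -1.76 ± 0.497 in low serum and by -1.06 ± 0.224 in standard serum (edgeR adjusted p = 0.00325 and 0.000921). Without MDA-MB-436 7TGP-POS replicate 1 the standard serum value was -0.94, and without 7TGP-NEG replicate 2 of that cell line it was -0.83, both under the fold limit. The low serum value lost its call in 2 alternatives, with DESeq2 (adjusted p = 0.0527) and with limma on log2(TPM + 1) (-0.99, just under the fold limit). S100A8 and, in standard serum, S100A9 had too few counts in MDA-MB-231 for such a test.

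S100A7 (psoriasin, made by stressed keratinocytes) had at most 6 counts in a library. In low serum MDA-MB-436 it had 1 and 1 counts in 7TGP-NEG and 3 and 6 in 7TGP-POS, and in standard serum 2 and 2 against 3 and 3. MDA-MB-231 had 0 or 1 count in each of its 8 libraries. No fold change is given at these counts.

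Of 11 other S100 genes, 7 were tested in low and 8 in standard serum. S100A16 ran from 56.8 to 387 CPM and S100A13 from 7.43 to 25.0 CPM over the 16 libraries. S100A16, a widely expressed member, was called higher in MDA-MB-231 than in MDA-MB-436 in both serum conditions. S100A12 (calgranulin C), the neighbour of S100A8 and S100A9, had 0 counts in all 8 MDA-MB-231 libraries. In MDA-MB-436 it had 37 and 38 counts in 7TGP-NEG and 28 and 17 in 7TGP-POS in low serum, and 21 and 20 against 5 and 4 in standard serum. Its log2 fold change in low serum was -0.71 ± 0.325 (edgeR adjusted p = 0.0670). In standard serum S100A12 passed the count filter only through MDA-MB-436 7TGP-NEG, where it was high, so no fold change is given there. S100A14 was called lower in 7TGP-POS in standard serum MDA-MB-436 (-1.35 ± 0.462, edgeR adjusted p = 0.0216), on 23 and 14 against 9 and 8 counts. In low serum MDA-MB-231 S100A5 was called lower in 7TGP-POS, with 31 and 21 counts against 65 and 60 (-1.20 ± 0.269, edgeR adjusted p = 0.000344). The chromosome 1 span from S100A10 to S100A1 also holds 47 protein-coding genes outside the family, of which 5 were tested in low and 3 in standard serum. The rest had fewer than 10 counts summed. Between the MDA-MB-436 sublines 1 of them was called, TCHH (trichohyalin), lower in 7TGP-POS in standard serum.

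Receptors of released S100 proteins were taken as the next list. Of 8 receptor genes, all were tested. In MDA-MB-231, 1 was called higher and 0 lower in low serum and 1 higher and 1 lower in standard serum. In MDA-MB-436, 3 were called higher and 0 lower in low serum and 2 higher and 0 lower in standard serum. Of all tested genes, 5.90% and 7.69% were called in MDA-MB-231 and 10.5% and 12.5% in MDA-MB-436, low serum first. These shares stand beside the counts of the other gene lists too. MCAM (CD146), reported to bind S100A8/S100A9, was called higher in 7TGP-POS in all 4 comparisons. In low serum its CPM went from 29.6 and 32.7 to 232 and 231 in MDA-MB-231, and from 27.1 and 28.0 to 72.4 and 72.3 in MDA-MB-436. The log2 fold changes were 2.90 ± 0.0584 for MDA-MB-231 and 1.38 ± 0.0602 for MDA-MB-436 in low serum. The standard serum values were 2.59 ± 0.0795 and 1.60 ± 0.0808. TLR4, a pattern recognition receptor that binds S100A8, was called higher in 7TGP-POS cells of MDA-MB-436 in both serum conditions, at 3.80 ± 0.169 and 3.73 ± 0.266. There it went from 0.673 and 0.524 CPM to 8.94 and 8.02 CPM in low serum. In MDA-MB-231 TLR4 was at 56.1 to 136 CPM in all 8 libraries, above every MDA-MB-436 library. The third receptor called in low serum MDA-MB-436 was CD36 (a scavenger receptor), on 20 and 12 against 37 and 34 counts (1.18 ± 0.337). The receptor called lower in standard serum MDA-MB-231 was NPTN (neuroplastin), from 127 and 126 to 66.1 and 65.4 CPM (edgeR adjusted p = 5.31e-09). AGER, which encodes RAGE, was low everywhere, at 0.948 to 6.89 CPM. Its log2 fold change in low serum was -0.59 ± 0.177 for MDA-MB-231 and -0.92 ± 0.238 for MDA-MB-436. BSG was high in all 16 libraries, at 428 to 779 CPM. The median over the 8 genes was 0.28 in low and -0.05 in standard serum MDA-MB-231, and 0.64 in low and -0.16 in standard serum MDA-MB-436.

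**Figure D4:**
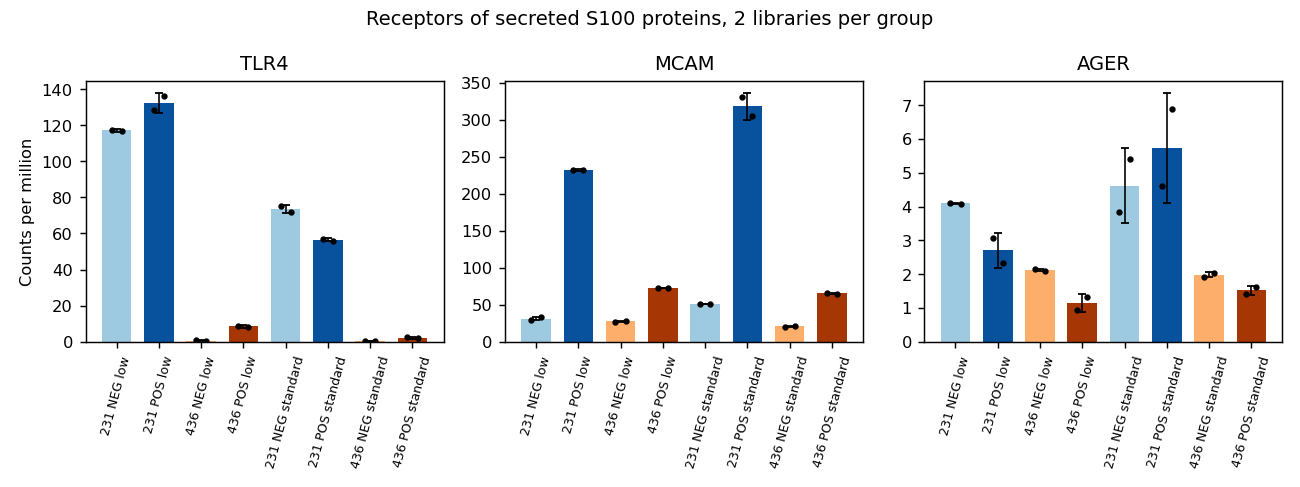
CPM of the receptor genes TLR4, MCAM and AGER in the 8 groups (231 and 436 stand for the cell lines, NEG and POS for the reporter state, low and standard for serum), with bars for the mean of 2 libraries, error bars for the SD and points for the libraries. MCAM is higher in 7TGP-POS within each cell line and serum condition, and TLR4 is at 56.1 to 136 CPM in MDA-MB-231 and at most 8.94 CPM in MDA-MB-436.

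Of 13 genes for intracellular S100 partners, 0 were called in MDA-MB-231 in either serum condition or in low serum MDA-MB-436, and 1 was called in standard serum MDA-MB-436. In the 3 comparisons with none called, 6, 9 and 7 had an unadjusted edgeR p below 0.05, in the order low and standard serum MDA-MB-231 and low serum MDA-MB-436. The called gene was ANXA6 (annexin A6, a membrane-binding protein), at 306 and 304 CPM in 7TGP-NEG and 115 and 121 CPM in 7TGP-POS, a log2 fold change of -1.43 ± 0.0747 (edgeR adjusted p = 3.58e-11). In low serum it was -0.85 ± 0.0499. ANXA2, the annexin that binds S100A10, was lower in 7TGP-POS in MDA-MB-231, at -0.47 ± 0.0518 in low and -0.65 ± 0.0783 in standard serum, beside the S100A10 values of -0.45 and -0.50. In MDA-MB-436 ANXA2 was at -0.38 ± 0.0518 in low and -0.05 ± 0.0780 in standard serum. The TPM ratio of S100A10 to ANXA2 ran from 0.491 to 1.15 over the 16 libraries. MYH9, the myosin heavy chain that S100A4 binds, was in low serum at 0.26 ± 0.0506 for MDA-MB-231 and at -0.21 ± 0.0508 for MDA-MB-436, and in standard serum its edgeR adjusted p was 1 and 0.742. The partner medians lay between -0.25 and -0.03 in the 4 comparisons.

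The plasminogen system was examined since S100A10 is a plasminogen receptor at the cell surface, and 5 of its 6 genes were tested. PLAUR, the urokinase receptor, was called lower in standard serum MDA-MB-436 7TGP-POS (-1.65 ± 0.0917, edgeR adjusted p = 8.36e-11), from 69.1 and 68.3 CPM to 20.4 and 25.3 CPM, and was at -0.99 ± 0.0607 in low serum. PLAU, which encodes urokinase, was higher there by adjusted p alone, at 0.51 ± 0.0488 in low and 0.65 ± 0.0734 in standard serum. SERPINE2, an inhibitor of plasminogen activators, was called higher in low serum MDA-MB-436 7TGP-POS (1.15 ± 0.0545). Of the same 5 genes, 0 were called for MDA-MB-231 in either serum condition (4 and 5 had an unadjusted edgeR p below 0.05), and by adjusted p alone 2 were higher and 1 lower in low serum and 2 higher and 2 lower in standard serum.

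Known Wnt target genes were read beside the members, since the sublines were sorted by a Wnt reporter. Of 9, all were tested, and called genes went both ways. The summed level of the 9 genes was higher in 7TGP-POS without overlap in all 4 comparisons. In MDA-MB-231 it went from 44.1 to 45.5 CPM in 7TGP-NEG to 57.6 to 59.5 CPM in 7TGP-POS in low serum, and from 35.7 to 36.1 to 40.04 to 41.8 CPM in standard serum. In MDA-MB-436 it went from 59.4 to 60.1 to 64.7 to 65.4 CPM in low serum, and from 51.0 to 52.3 to 66.1 to 66.3 CPM in standard serum. Such a sum weighs the most abundant genes, such as ZNRF3 (7.76 to 29.9 CPM) and LEF1 (8.41 to 27.0 CPM). The median log2 fold change over the 9 genes was 0.37 in low and 0.02 in standard serum MDA-MB-231. It was -0.16 in low and -0.12 in standard serum MDA-MB-436. LGR5 was called higher in low serum MDA-MB-231 7TGP-POS (1.40 ± 0.221) and RNF43 higher in standard serum (1.11 ± 0.191). In MDA-MB-436 7TGP-POS, NKD1 was called lower in low serum (-1.21 ± 0.218), and SP5 and RNF43 lower in standard serum (-1.13 ± 0.237 and -2.40 ± 0.699). RNF43 was near the floor in those standard serum cells, with a lowest level of 0.0217 CPM, so the size of its change is loose. AXIN2, a widely used target, was at 0.65 ± 0.112 and 0.33 ± 0.192 in MDA-MB-231 and at 0.36 ± 0.185 and -0.12 ± 0.222 in MDA-MB-436, low serum first.

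The genes most like each member were ranked by Pearson correlation of log2(CPM + 1), centred within serum, over the 16 libraries among 12481 genes outside the family. For S100A9 they were SALL1 (r = 0.998), RAP1GAP (0.997) and HACD4 (0.997). For S100A8 they were KCNK3 (0.997), LMO1 (0.997) and SOD1 (0.996). For S100A4 they were ALDH2 (0.993), PLPP2 (0.985) and JUP (0.983), and for S100A6 SNRPC (0.993), CLIC1 (0.992) and CAPN2 (0.992). S100A10 was closest to RSU1 (0.963), S100A11 to CCDC34 (0.972), S100A2 to CENPO (0.956) and S100A3 to MARCHF2 (0.963). The libraries fall into 2 cell lines, so these values largely describe which genes share the gap between them.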

How the data were processed

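RNA-Seq was performed on 16 libraries. Per the study's methods, the authors aligned reads to hg19 with STAR and generated raw counts by STAR gene quantification on a Gencode annotation. The deposited TPM tables were made by the authors, and how is not given in the sources used here. Nor is the counting strand, so reads of S100A6 and S100A11 cannot be told from those of 2 overlapping antisense genes. The submitters' processing notes name STAR 2.6.1a, edgeR 3.22.5 and limma. The low serum kit of the methods (rRNA depletion) differs from that of the labels.

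Counts were fitted per serum condition with edgeR 4.0.16 (R 4.3.3; quasi-likelihood, robust, TMM, 4 groups), with SE as the absolute log2 fold change over the square root of F. Biotypes matched 55538 of 57820 identifiers. Alternatives used DESeq2 1.42.0, limma 3.58.1 on log2(TPM + 1) and log2(TPM + 0.1), other scalings, filters and a replicate block. No replicate pair differed by less than sampling noise. The labels give biological duplicates. The fit was tested on simulated data. Members and gene lists were chosen with earlier results of these data known. Genes named are the members, those lists, called span neighbours and the most alike genes.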

Additional observations from a re-analysis of the deposited data

Results flagged for a closer look

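For 4 results a test of the difference itself separated the cell lines. As MDA-MB-231 minus MDA-MB-436, the change from 7TGP-NEG to 7TGP-POS was 1.18 for S100A9 and -1.76 for S100P in low serum, and 1.50 for S100A4 and -1.06 for S100P in standard serum, all on the log2 scale. The S100A4 call was kept in every alternative, while the S100A9 call and both S100P calls were lost in 2 alternatives each. In standard serum 2 further members went in opposite directions in the cell lines, and the tested difference was -0.68 for S100A10 (edgeR adjusted p = 3.31e-05) and 0.63 for S100A2 (edgeR adjusted p = 0.00896), both under the fold limit. S100A10 and S100A2 also went in opposite directions between serum conditions within 1 cell line, which was not tested. In MDA-MB-436 S100A10 was at -0.25 in low and 0.19 in standard serum, where the latter missed the threshold without 7TGP-NEG replicate 1 (0.13, edgeR adjusted p = 0.252), and in MDA-MB-231 S100A2 was at -0.41 in low and 0.26 in standard serum, where the edgeR adjusted p was 0.163.

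Counts outside the tested genes were also seen. The antisense genes that overlap S100A11 (ENSG00000229021) and S100A6 (ENSG00000238279) reached 13 and 45 counts in a library, and the processed pseudogene S100A11P2 reached 11. The members themselves had at least 2636 (S100A11) and 17377 (S100A6) counts.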

How the results depend on the processing

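Of 1167 values of members under the alternatives, 1115 kept both direction and call, 20 lost a call, 18 gained one and 14 changed sign. The sign changes all concerned values that missed the adjusted p in the edgeR fit. With limma on log2(TPM + 1) and log2(TPM + 0.1) they were, for MDA-MB-231, S100A11 in standard serum (0.0070 in both), S100A3 in low (-0.15 and -0.16) and standard serum (0.015 and 0.017) and S100A9 in low serum (-0.080 and -0.11). With 1 library left out the values ran from -0.12 to 0.054 for S100A11, from -0.038 to 0.13 and from -0.23 to 0.19 for S100A3 in low and standard serum, and from -0.15 to 0.32 for S100A9, all in MDA-MB-231, and from -0.35 to 0.11 for S100P in standard serum MDA-MB-436.

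Without the fold limit, the members called in low serum numbered 5 in MDA-MB-231, 9 in MDA-MB-436, 7 for the difference between the cell lines' changes and 9 between the 7TGP-NEG sublines. In standard serum they numbered 4, 7 and 6 in that order, and the last comparison stayed within 1.5 times. By adjusted p alone, of all 16069 genes tested in low serum, 6369 were higher and 6361 lower between the 7TGP-NEG sublines. For the difference between the changes they were 3384 and 3961 in low serum, and 2899 and 3456 of 15414 in standard serum. The shares of all genes within each cell line are given with the members above. With log2(TPM + 1) and log2(TPM + 0.1), 3 members each were called between the low serum 7TGP-NEG sublines, and 4 each for the standard serum difference between the changes. With log2(TPM + 0.1), 4 were called for the low serum difference. Those counts include members with under 10 counts in a group. On the TPM scale the median over all tested genes moved by -0.12 to -0.34 in 3 of the low serum comparisons, and between the standard serum 7TGP-NEG sublines it moved by -0.14 with log2(TPM + 0.1). Leaving out 1 library gave 1 to 3 called members for the difference in low and in standard serum, with 1 (S100P) without MDA-MB-231 7TGP-POS replicate 2 and 1 (S100A4) without MDA-MB-436 7TGP-POS replicate 1.

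The replicate numbers were checked for pairing. Correlations of replicate differences ran from -0.249 to 0.108 in low and from -0.0572 to 0.463 in standard serum, so the numbers were not taken to pair the samples. With the replicate block, the counts of called members were 0, 3, 2 and 5 in low and 1, 3, 2 and 7 in standard serum, as without it. Low serum calls over all genes went from 1694 to 1667 in MDA-MB-436, and to 1695 with the numbers of its 7TGP-POS libraries exchanged, an alternative chosen after seeing the data. With 2 libraries a group and S100P at 11 to 33 counts in low serum, differences near the fold limit were not resolved at this depth.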
